A study of Homo sapiens with 17 samples.

Results

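The DNA replication genes described here are 46 of the 23368 genes in the count table. They were taken by name, with no filter on their counts but with earlier results of these data known. All 46 passed the count filter of every comparison, although TYMS had 0 counts in all siTDP43 IP and IgG libraries. By role they comprise 6 subunits of the origin recognition complex (ORC1 to ORC6), 2 licensing factors (CDC6 and CDT1), the 6 subunits of the MCM helicase (MCM2 to MCM7), 6 factors that switch the helicase on (CDC45, MCM10 and GINS1 to GINS4), 4 genes of polymerase alpha and primase, 5 of polymerases delta and epsilon, 6 of the sliding clamp and its loader (PCNA and RFC1 to RFC5), 2 of Okazaki fragment maturation (FEN1 and LIG1), 3 of the single-strand binding protein RPA, 4 of nucleotide supply (TYMS, RRM1, RRM2 and TK1) and 2 of chromatin assembly factor 1 (CHAF1A and CHAF1B).

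Replication origins are licensed when the origin recognition complex, CDC6 and CDT1 load the MCM helicase onto DNA. CDC45 and the GINS complex then activate the helicase, polymerase alpha with primase starts each strand, and polymerases delta and epsilon extend it on the PCNA clamp, which the RFC complex loads. Many of these genes are transcribed in late G1 and S phase under the control of E2F factors, and all are used in proliferating cells. N4-acetylcytidine (ac4C) is an acetylated RNA base that the enzyme NAT10 writes, and TDP43, encoded by TARDBP, is an RNA-binding protein that prefers UG-rich sequence.

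The series asked which poly(A) RNAs an antibody against ac4C recovers from HEK293T cells, a human embryonic kidney line, and how this differs after depletion of TDP43 by siRNA (acRIP-seq). There were 17 libraries: WT cells gave 3 input, 3 ac4C immunoprecipitation (IP) and 2 IgG control libraries, and siTDP43 cells gave 3 of each. The labels name no siRNA for the WT group, so the transfection itself, and any batch shared by a genotype, cannot be told apart from the loss of TDP43. They also do not say that replicates were separate cultures, so the p-values measure the spread between these libraries.

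Total counts ran from 24542434 to 36583436 in the inputs and from 8610070 to 21066215 in the IPs. They were 9022250 and 9466855 in WT IgG and 3013989 to 3436811 in siTDP43 IgG, the shallowest group. TARDBP, the targeted gene, was lower in siTDP43 input by 0.57 ± 0.05 on the log2 scale (SE, n = 3 and 3, edgeR adjusted p = 6.55e-13), and the exact two-sided permutation test on CPM (counts scaled to library size with TMM factors) gave p = 0.1, the smallest that 3 against 3 allows. Of the HEK293T markers VIM, KRT8, KRT18, NEFM, NEFL and LIN28B had 841 counts or more in every input library, whereas PAX2 had 2 to 54. PTPRC, CD3E, ALB and NPHS1, markers of blood, liver and podocytes, had 6 counts or fewer.

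Most promoters of the replication genes held an E2F motif. A RefSeq window from 250 bases before to 50 bases after the start (GRCh38.p14) could be matched for 40 members, and 27 of them (67.5%) held TTGGCGC or TTCCCGC, a pair of motifs bound by E2F factors, on either strand. The share over all 27305 genes with a window, whether or not they were tested here, was 11%. These genes were not matched to the members in level or base composition. Some genes have several windows, and over windows of equal length the shares were 56% of 50 member windows and 9.23% of 35116 windows. The CCAAT box was present in 58% of the member windows against 34.6% of all, GGGCGG in 72% against 45.0%, and TTTGAA in 2% against 15.2%. A match describes the letters only and is not a measured binding site.

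Short promoter stretches are shown for 7 of the members described in the input comparison below, with the E2F motif or its reverse complement in capitals. In siTDP43 input GINS1, MCM7 and RPA1 were higher than in WT input, CDT1, CHAF1A and PCNA were lower, and TYMS was not called. Each stretch is 29 bases long and read 5′ to 3′ on the strand of its gene. The stretches lie at chr16:88803755-88803783 for CDT1, chr19:4402622-4402650 for CHAF1A, chr20:25407667-25407695 for GINS1, chr7:100101385-100101413 for MCM7, chr17:1829825-1829853 for RPA1, chr20:5126664-5126692 for PCNA and chr18:657603-657631 for TYMS (GRCh38.p14, with MCM7 and PCNA on the minus strand).
CDT1: cgggaaatttgGCGGGAAccgcgcccgcc
CHAF1A: ggtcgccgcggTTCCCGCcaaatacgagc
GINS1: agctttgttcgGCGCCAAagcgcggagcg
MCM7: ggcgacgtttcGCGCCAAtttcggttggc
RPA1: tggcgcgccccTTGGCGCcccgctccgcc
PCNA: cagcgtcagggGCGGGAAaaggcgtgcgt
TYMS: gcgggacggccGCGGGAAaaggcgcgcgg

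Replication genes were abundant in these cells. Per length, their median level in WT input was 41.1 FPKM, against 3.62 over the 14036 genes tested in the inputs, and 45 of 46 lay above that median. PCNA was the highest at 259 ± 5.06 FPKM (SD, n = 3), followed by RPA2 at 208 ± 1.92 and POLD2, the second subunit of polymerase delta, at 199 ± 3.30. These 3 levels are each apart by more than their SDs. POLE, the catalytic subunit of polymerase epsilon, was the lowest at 2.17 ± 0.222 FPKM, below POLA1 at 5.71 ± 0.354 and GINS4 at 5.73 ± 0.0701, which do not differ beyond their spread. In siTDP43 input RPA2 (364 ± 5.46 FPKM) and MCM7 (286 ± 11.8) held the first and second place, and PCNA the fourth at 182 ± 6.59.

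The first comparison asked whether depletion of TDP43 altered the RNA level of these genes. In siTDP43 input 31 of the 46 members were higher and 10 were lower than in WT input (edgeR, adjusted p under 0.05), a combined share that has to be read against the 79.2% of all tested genes called by the same rule (38.6% higher and 40.6% lower). The members' median log2 change was 0.36 and that of all genes was -0.05. The groups of libraries did not overlap for 41 members (89.1%), beside 80.4% of all genes tested. With a fold change above 2 also required, 6 members were higher (15.5% of all genes) and 1 was lower (21.6%). In bulk RNA, less RNA per cell cannot be told apart from fewer cells in the phase that expresses a gene.

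Genes of the helicase rose together. All 6 MCM subunits were higher, with log2 changes from 0.20 for MCM3 to 1.17 for MCM7, and so were all 6 activation factors, from 0.31 for CDC45 to 2.25 for GINS1. GINS1, a subunit of the GINS complex, had 590, 801 and 707 counts in WT input and 2866, 2523 and 2677 in siTDP43 input. This is a rise from 20.01 ± 0.451 to 95.1 ± 4.76 CPM (SD, n = 3 each) and a log2 change of 2.25 ± 0.06 (SE, adjusted p = 1.61e-24), with the groups far apart. GINS4, of the same complex, had 661, 878 and 768 counts in WT and 1546, 1282 and 1554 in siTDP43 input (22.0 ± 0.269 and 51.5 ± 3.24 CPM, log2 1.23 ± 0.07, adjusted p = 1.44e-16). MCM7 had 13328, 17513 and 15156 counts in WT input and 32668, 24521 and 26859 in siTDP43 input, with every siTDP43 library above every WT one (log2 1.17 ± 0.04, adjusted p = 1.16e-22). Exons of MCM7 share 266 bases with AP4M1, whose reads may be split with it. MCM2 rose by 1.06 and MCM5 by 0.94 on the log2 scale.

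The licensing factors went the other way. CDT1, which brings the MCM helicase to origins (chr16:88870186-88875666, plus strand, hg19), had 2265, 2741 and 2489 counts in WT input and 476, 291 and 319 in siTDP43 input. Its level was 71.8 ± 2.7 and 12.6 ± 2.08 CPM (SD, n = 3 each), a fall by 2.5 ± 0.08 on the log2 scale (adjusted p = 1.46e-22), so that 17.7% of the WT level was left. It was the single member that fell by more than 2-fold. CDC6, its partner in loading, fell by 0.49. Of the origin recognition subunits 5 were higher and ORC4 was not called (-0.10), and ORC2 had the largest change. Its counts were 1151, 1501 and 1553 in WT and 2889, 2377 and 2620 in siTDP43 input (40.2 ± 3.54 and 92.7 ± 1.52 CPM, log2 1.21 ± 0.06, adjusted p = 4.39e-18).

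Among the 9 polymerase genes 5 were higher and 1 was lower. POLA1, the catalytic subunit of polymerase alpha, had 873, 1254 and 1138 counts in WT and 1799, 1371 and 1595 in siTDP43 input (31.1 ± 1.93 and 55.9 ± 1.36 CPM, log2 0.85 ± 0.06, adjusted p = 2.43e-13). PRIM1, the small primase subunit, rose by 0.45, and POLA2 (0.08) and PRIM2 (0.14) were not called. POLE had 559, 594 and 615 counts in WT and 867, 691 and 664 in siTDP43 input (17.04 ± 1.74 and 26.1 ± 2.20 CPM), groups that did not overlap (log2 0.62 ± 0.09, adjusted p = 3.50e-07). POLE2 rose by 0.37 and POLD3 by 0.29, while POLD2 fell by 0.25 and POLD1 (0.06) was not called. LIG1, the ligase that joins Okazaki fragments, rose from 969, 1325 and 1225 counts to 1712, 1233 and 1409 (33.6 ± 1.44 to 50.9 ± 2.72 CPM, log2 0.61 ± 0.06, adjusted p = 6.60e-10), and FEN1, the flap nuclease, by 0.22.

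By number, the clamp and its loader were the role with the most falls, 4 of 6 members, beside 40.6% of all genes tested. Both licensing factors fell as well. PCNA (chr20:5095599-5107268, minus strand, hg19) had 11167, 14511 and 13398 counts in WT input and 8132, 6485 and 7702 in siTDP43 input, which on the CPM scale was 373 ± 7.30 against 262 ± 9.51. The difference was a fall by 0.51 ± 0.04 on the log2 scale (adjusted p = 4.55e-13), and the CPM values did not overlap. RFC4 fell from 4006, 5488 and 4844 counts to 2773, 2394 and 2693 (137 ± 3.77 to 92.6 ± 4.45 CPM, log2 -0.56 ± 0.05, adjusted p = 4.27e-12), RFC1 by 0.25 and RFC2 by 0.13. RFC3 rose from 5624, 7219 and 6444 counts to 9841, 7803 and 9162 (184 ± 1.33 to 315 ± 8.80 CPM, log2 0.78 ± 0.04, adjusted p = 1.13e-17), and RFC5 by 0.11. Exons of PCNA share 384 bases with its antisense gene PCNA-AS1, and no source used here says whether reads were counted by strand.

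Members of the same complex also parted in the last 3 roles. RPA1, the large subunit of RPA, rose from 5144, 6811 and 6185 counts to 12775, 9807 and 10709 (173 ± 3.10 to 390 ± 11.7 CPM, log2 1.18 ± 0.04, adjusted p = 3.86e-22) and RPA2 by 0.82, whereas RPA3, the small subunit, fell by 0.40. In nucleotide supply RRM1, the large subunit of ribonucleotide reductase, rose from 9717, 12181 and 11416 counts to 16669, 13444 and 15021 (319 ± 8.01 to 530 ± 3.92 CPM, log2 0.74 ± 0.04, adjusted p = 1.14e-17), and RRM2, the subunit made in S phase, fell by 0.52. TK1 rose by 0.39, and TYMS, the thymidylate synthase, was not called at -0.05 ± 0.08 (adjusted p = 0.525). CHAF1A, the large subunit of the histone chaperone CAF-1, fell from 779, 942 and 883 counts to 471, 338 and 339 (25.0 ± 0.913 to 13.4 ± 1.42 CPM, log2 -0.89 ± 0.09, adjusted p = 4.42e-10), and CHAF1B rose by 0.54.

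**Figure D1:**
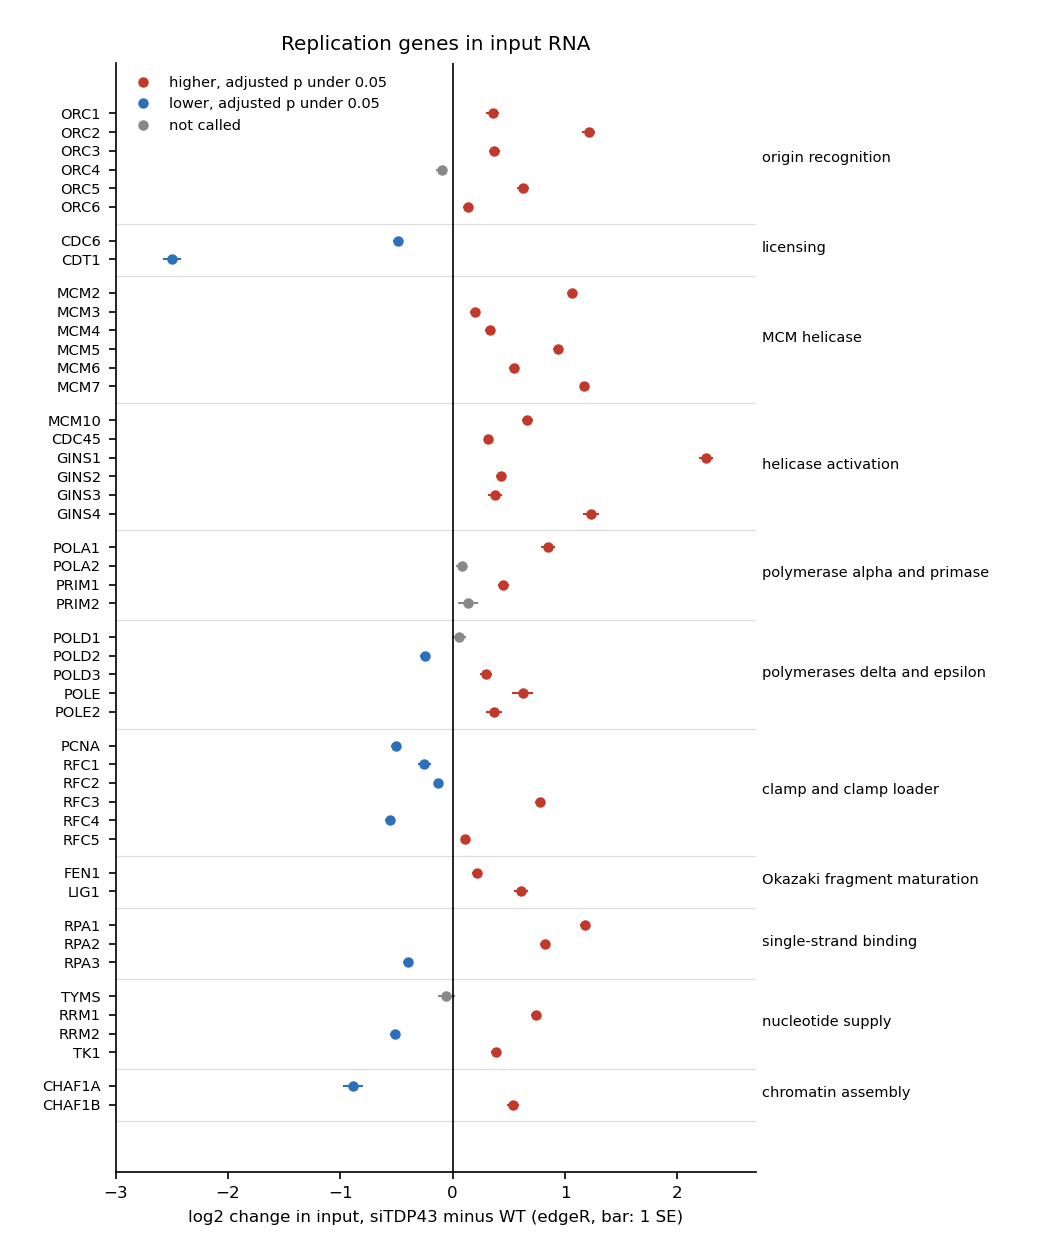
Log2 change of each of the 46 replication genes in input RNA, siTDP43 minus WT (points, with bars of 1 SE from edgeR, 3 libraries a group), ordered by role. Every MCM subunit and every helicase activation factor lies above 0, while CDT1 at -2.5 lies furthest below.

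The same comparison was made for 3 lists of related genes. Of 44 other replication genes 18 were higher and 20 were lower in siTDP43 input, with a median of -0.02. UHRF1, which recruits the maintenance DNA methyltransferase behind the fork, rose by 1.89, the nuclease gene DNA2 by 1.77 and RRM2B by 1.62, while TONSL fell by 1.34 and RNASEH2B by 1.30. Of 13 E2F and RB family genes 5 were higher and 7 lower. E2F1 (-1.66 ± 0.11, adjusted p = 6.34e-15) and E2F2 (-1.55 ± 0.14, adjusted p = 1.29e-11), activators of replication genes, and their partner TFDP1 (-0.97 ± 0.08, adjusted p = 8.44e-13) fell, whereas RBL1 (1.04 ± 0.10, adjusted p = 6.18e-11) and RBL2 (1.25 ± 0.06, adjusted p = 2.41e-17), members of the RB family, rose. E2F4 (-0.33), E2F5 (-1.18), E2F6 (-1.22) and TFDP2 (-0.75) also fell, while E2F7 (0.46), E2F8 (0.44) and RB1 (0.37) rose. E2F3 (0.18) was not called. Of 16 mitotic genes 10 were higher and 5 lower, with a median of 0.48. Among the members, 18 of the 27 with an E2F motif in their promoter windows were higher and 8 were lower (median 0.38), against 8 and 1 of the 13 whose windows held none (median 0.14). Of the 6 members without a window 5 were higher and 1 was lower (median 0.57). All these counts stand beside 38.6% of all tested genes higher and 40.6% lower by the same rule.

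The second question was whether the ac4C antibody recovered the RNA of replication genes. In WT cells 5 members were more than 2-fold higher in IP than in input (30.2% of 14751 genes by the same rule) and 25 were more than 2-fold lower (27.3% of all). Their median log2 ratio was -1.05, and that of all genes was 0.01. Against IgG, the nonspecific control, 3 members were higher (35.2% of all) and 13 lower (17.8%), with a median of -0.59 beside 0.29 over all genes. The IgG libraries themselves differed from input, with 7 members higher (24.4%) and 16 lower (36.6%) and a median of -0.42 beside -0.39. The groups did not overlap for 46 members in IP against input (86.9% of all genes) and for 42, or 91.3%, in IP against IgG (84.3% of all genes). Removing a GC trend from each library raised the count of members lower than IgG to 24 and moved all genes from 5186 higher and 2629 lower to 4054 and 4219.

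CHAF1A was the member most enriched over input. It had 779, 942 and 883 counts in WT input, 17388, 18256 and 17340 in WT IP, and 4596 and 4871 in WT IgG. On the CPM scale these were 25.0 ± 0.913, 744 ± 25.0 and 473 ± 39.2 (SD). Its share of the reads was thus far larger in IP and in IgG than in input. The log2 ratio of IP over input was 4.91 ± 0.06 (SE, adjusted p = 1.60e-26) and that of IgG over input 4.27 ± 0.06 (adjusted p = 4.03e-24), which left 0.63 ± 0.06 for IP over IgG (adjusted p = 8.10e-10), a 1.55-fold difference. CDT1 was also above input in both, with 71.8 ± 2.7 CPM in input, 316 ± 16.7 in IP and 400 ± 25.5 in IgG. It was higher in IP than in input by 2.15 ± 0.06 (adjusted p = 1.52e-20) and lower in IP than in IgG, by 0.36 ± 0.06 (adjusted p = 9.43e-06). The first of these differences was 0.59 with a GC trend removed, below 2-fold.

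LIG1, POLE and RFC1 were the other members more than 2-fold above input. LIG1 had 969, 1325 and 1225 counts in WT input, 2545, 2570 and 2280 in WT IP, and 556 and 592 in WT IgG. It was higher in IP than in input by 1.63 ± 0.07 (adjusted p = 1.09e-16), or 0.89 with a GC trend removed, and higher in IP than in IgG by 0.83 ± 0.08 (adjusted p = 2.09e-09). POLE was higher in IP than in input by 1.62 and than in IgG by 0.54, and RFC1, the large subunit of the clamp loader, by 1.30 and 0.34.

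The members more than 2-fold below input spanned all roles except Okazaki fragment maturation. TYMS was the lowest, at 1.62 ± 0.316 CPM in IP against 30.2 ± 1.36 in input (log2 -4.21 ± 0.15, adjusted p = 7.51e-18). ORC5 had 2108, 2473 and 2304 counts in input and 216, 214 and 202 in IP (log2 -2.89 ± 0.09, adjusted p = 7.67e-19), and RFC5 7973, 9701 and 9146 against 860, 835 and 820 (log2 -2.86 ± 0.06, adjusted p = 1.89e-22). Every IP library of these 3 genes was below every input library. PCNA was lower in IP than in input by 1.16 ± 0.05 (adjusted p = 2.00e-16), or 0.89 with a GC trend removed, and lower than in IgG by 1.29 ± 0.06 (adjusted p = 8.31e-16).

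The 3 members more than 2-fold higher in IP than in IgG all lay below input. PRIM2, the large primase subunit, had 182, 177 and 216 counts in WT IP and 14 and 40 in WT IgG, so its ratio of 1.56 ± 0.28 (adjusted p = 2.77e-05) rests on 2 sparse control libraries, and it was 0.95 without WT IgG replicate 1. ORC2 was higher by 1.32 ± 0.19 (adjusted p = 7.93e-07, with 381, 323 and 391 counts in IP and 50 and 72 in IgG) and RFC4 by 1.20 ± 0.11 (adjusted p = 3.05e-10), or 0.88 with a GC trend removed. The largest falls were in ORC4, which had 494, 540 and 482 counts in IP and 2237 and 1710 in IgG (log2 -3.23 ± 0.08, adjusted p = 7.71e-20), in MCM4 with 8180, 8446 and 7873 against 16647 and 15697 (log2 -2.25 ± 0.05, adjusted p = 4.68e-21), and in RFC2 (log2 -1.56 ± 0.07, adjusted p = 6.15e-16). MCM4 was higher in IgG than in input by 2.45 ± 0.05 (adjusted p = 4.22e-22). Exons of ORC4 share 428 bases with ACVR2A.

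In siTDP43 cells 3 members were more than 2-fold higher in IP than in input (26.8% of 12746 genes) and 10 were lower (25.4%), with a median of -0.67 beside -0.09 over all genes. Against IgG 6 were higher (34% of all) and 2 lower (15%), with a median of 0.12 beside 0.33. IgG over input gave 5 higher (24.7%) and 18 lower (41%), with a median of -0.78 beside -0.58. Scaling by total count in place of TMM raised the members lower in IP than in input to 23 and moved all genes from 3414 higher and 3239 lower to 2772 and 4323. With a GC trend removed, 2 members were higher and 7 lower in IP than in IgG, their median turned to -0.44, and all genes moved from 4328 higher and 1913 lower to 3265 and 3444 with a median of -0.21.

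CDT1, CHAF1A and RPA3 were the members more than 2-fold above input. CDT1 had 476, 291 and 319 counts in siTDP43 input, 1462, 922 and 745 in IP, and 325, 289 and 271 in IgG, or 12.6 ± 2.08, 98.3 ± 8.97 and 111 ± 12.6 CPM (SD, n = 3 each). It was higher in IP than in input by 3.11 ± 0.12 (adjusted p = 5.89e-16), and its ratio to IgG was -0.24 ± 0.12 (adjusted p = 0.0719). CHAF1A had 471, 338 and 339 counts in siTDP43 input, 913, 581 and 436 in IP and 207, 188 and 210 in IgG. It was higher in IP than in input by 2.32 ± 0.12 (adjusted p = 8.02e-14) and lower than IgG by 0.40 ± 0.12 (adjusted p = 0.00696). RPA3 reached 662 ± 42.8 CPM in IP and 818 ± 32.7 in IgG, against 180 ± 10.03 in input (IP over input 2.03 ± 0.06, adjusted p = 9.23e-18), and was lower in IP than in IgG by 0.38 ± 0.06 (adjusted p = 1.45e-05). IgG was thus as high as IP or higher for each of them.

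RFC5 had the lowest measured ratio to input, with 734, 472 and 477 counts in siTDP43 IP against 8537, 7012 and 7965 in input (log2 -2.21 ± 0.11, adjusted p = 2.95e-14), followed by MCM2, with 1118, 748 and 588 against 10265, 7599 and 7903 (log2 -1.81 ± 0.09, adjusted p = 1.59e-14). PCNA was higher in IP than in input by 0.93 ± 0.06 (adjusted p = 1.22e-11), short of 2-fold, and lower than IgG by 0.26 ± 0.07 (adjusted p = 0.0012). Over IgG the largest ratio was that of ORC3, with 466, 358 and 236 counts in IP and 14, 12 and 8 in IgG (log2 2.90 ± 0.22, adjusted p = 2.16e-10). POLE followed with 374, 229 and 204 against 12, 14 and 10 (log2 2.43 ± 0.24, adjusted p = 1.48e-08), and ORC2 with 442, 330 and 261 against 34, 10 and 26 (log2 1.84 ± 0.21, adjusted p = 1.09e-07, or 0.97 with a GC trend removed). These ratios stand on few reads in the shallow IgG libraries. PRIM2 was lower in IP than in IgG by 1.92 ± 0.20 (adjusted p = 3.34e-08) and RFC2 by 1.16 ± 0.09 (adjusted p = 2.30e-10), the latter 0.96 under total count scaling and 0.94 with limma on log2(FPKM + 1), both short of 2-fold.

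Taking an ac4C(+) RNA as one with a more than 2-fold excess in IP over each of input and IgG and an adjusted p under 0.05 in each, 0 of the 46 replication genes qualified in WT cells, where 15.6% of the 14751 genes tested did (2302 genes). In siTDP43 cells the count was again 0 of 46, against 10.3% (1314 of 12746). With edgeR the counts were also 0 and 0 at an unadjusted p under 0.05 with the same fold, and 0 and 0 with DESeq2 and with limma. Dropping the fold requirement, 6 WT members were higher in IP than in both controls (ORC6, POLD1, POLE, RFC1, LIG1 and CHAF1A), against 25.5% of all genes, and 3 siTDP43 members (MCM4, GINS2 and RFC1), against 16.9%. LIG1 came closest to the definition in WT cells, with its smaller log2 ratio at 0.83, and RFC1 in siTDP43 cells, at 0.56. Against IgG alone, with no demand on input, the counts were the 3 and 6 members given above.

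**Figure D2:**
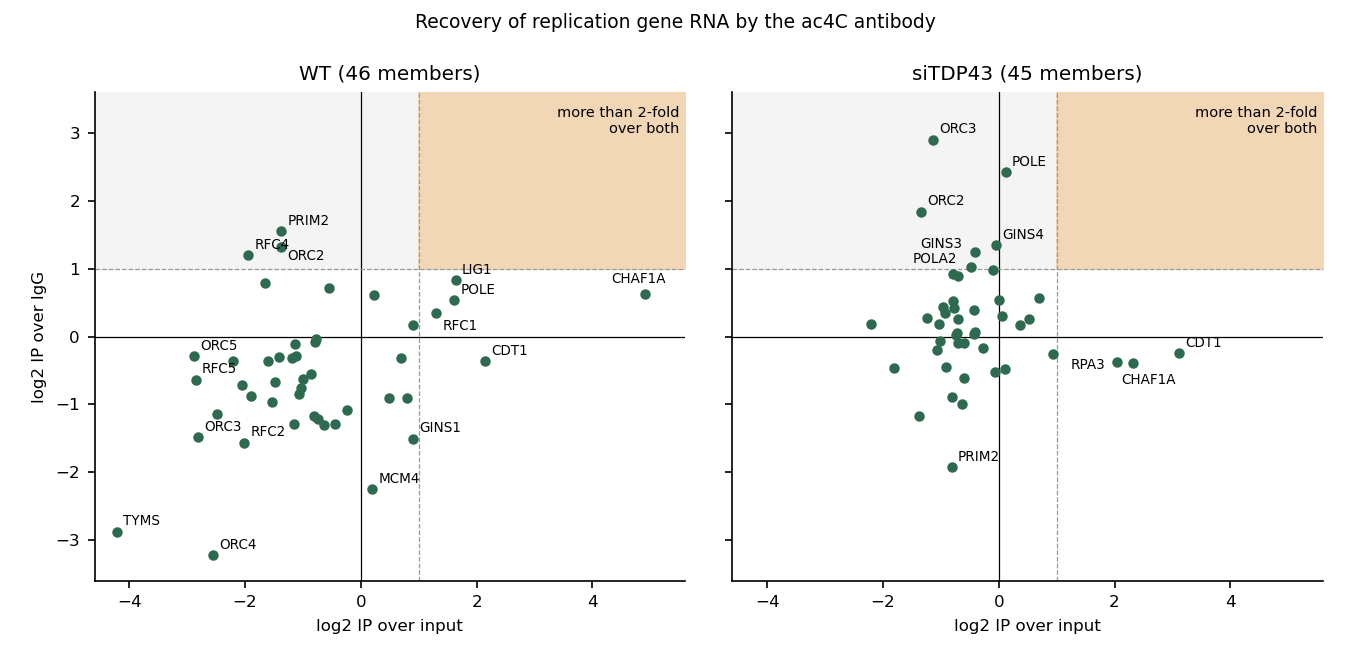
Log2 ratio of IP over input (x axis) and of IP over IgG (y axis) for each replication gene in WT (left) and siTDP43 (right), with dashed lines at 2-fold. No point lies in the shaded corner above 2-fold over both controls, where an ac4C(+) RNA would be. TYMS, at 0 counts in siTDP43 IP and IgG, is left out on the right.

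TYMS, which makes thymidylate for DNA synthesis, was the single member with libraries at 0 counts. It had 882, 1247 and 1040 counts in WT input and 865, 684 and 918 in siTDP43 input, 31, 41 and 43 in WT IP, and 132 and 103 in WT IgG. In siTDP43 cells all 3 IP and all 3 IgG libraries had 0 counts. The input levels, 30.2 ± 1.36 and 29.0 ± 3.10 CPM (SD, n = 3 each), were within their spread of each other, and the reads were absent in the IP and IgG fractions. Against a floor of 3 counts per library, TYMS was at least 96.5-fold lower in siTDP43 IP than in input and at least 25.7-fold lower in IgG than in input. The ratio of IP to IgG has no value there, since both were at 0. TYMS was still kept among the members in the siTDP43 counts and medians of IP over IgG, and in those of the interaction over IgG. In WT cells TYMS was lower in IP than in IgG by 2.87 ± 0.19 (adjusted p = 3.01e-12).

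Of the 1583 exon bases of TYMS (chr18:657604-673499, plus strand, hg19), 994 are shared with ENOSF1 or C18orf56, and whether the counting used strand is not stated. ENOSF1, the antisense neighbour, had 354, 242 and 241 counts in siTDP43 IP and 22, 23 and 42 in siTDP43 IgG, and C18orf56 had 173, 162 and 168 in IP and 52, 44 and 52 in IgG. Neither neighbour was at 0 where TYMS was. Over the 6 group means RRM2 had the pattern most like that of TYMS (Spearman's rho 0.986), followed by CDC6 and POLA2 (0.841 each). These 6 points share libraries and scaling, and the values are a description.

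**Figure D3:**
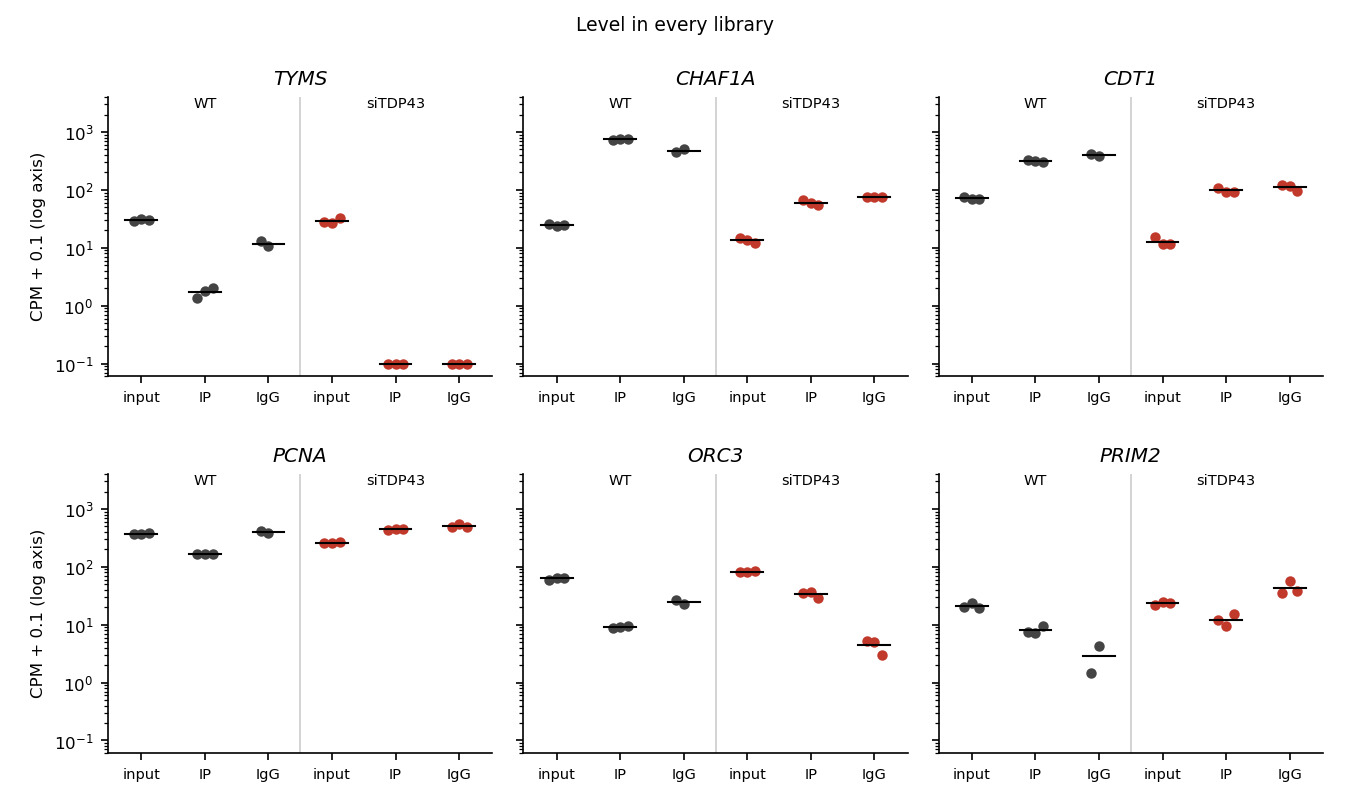
Level of 6 replication genes in every library as CPM plus 0.1 on a log axis (grey points are WT and red points siTDP43 libraries, black lines are group means). TYMS is at 0 counts in all 6 siTDP43 IP and IgG libraries, CHAF1A and CDT1 lie above input in both IP and IgG, and ORC3 and PRIM2 change their order of IP and IgG between the genotypes.

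The third question was whether the ratio of IP to its controls differed between the genotypes, tested as an interaction over all 17 libraries. Over input, 23 members had a higher ratio in siTDP43 than in WT cells (31.5% of 15165 genes) and 15 a lower one (36.3%), with a median difference of 0.26 beside -0.19 over all genes. With total count scaling the members' counts were 17 and 19 and their median was -0.04, while all genes moved with them, to 3812 higher and 6592 lower and a median of -0.48. The members' median less that of all genes was 0.45 under both scalings. Over IgG, 28 members were higher (34.9% of all) and 6 lower (25.9%), with a median of 0.65 beside 0.24. Both interactions share the IP libraries, and their values are given side by side.

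RPA3, whose exons share 111 bases with LOC729852, had the largest rise over input. In the fits within each genotype its IP was lower than input in WT by 0.64 ± 0.05 and higher in siTDP43 cells by 2.03 ± 0.06. The separate interaction fit over all 17 libraries gave a difference of 2.53 ± 0.09 over input (adjusted p = 7.07e-25). Over IgG the difference was 0.98 ± 0.09 (adjusted p = 5.62e-12). ORC5 followed over input with 2.14 ± 0.13 (adjusted p = 1.00e-16), then POLE2 with 1.96 ± 0.22 (adjusted p = 5.69e-10) and PCNA with 1.95 ± 0.08 (adjusted p = 1.24e-21). For ORC5 the IgG level moved with IP, from 10.7 to 61.4 CPM beside 8.87 to 60.4 CPM. Its IP over IgG was not called in WT (-0.29) or siTDP43 cells (-0.10). POLE2 went from 8.05 to 40.4 CPM in IP and from 10.2 to 19.2 CPM in IgG. The ratio of PCNA to IgG also differed, by 1.08 ± 0.09 (adjusted p = 3.54e-13), and was below 0 in both genotypes. CHAF1A fell by 2.72 ± 0.11 over input (adjusted p = 6.27e-22) and by 0.97 ± 0.12 over IgG (adjusted p = 1.13e-08). LIG1 fell by 1.77 ± 0.15 over input (adjusted p = 3.00e-13), and its difference over IgG was -0.24 ± 0.19 (adjusted p = 0.302). For TYMS the log2 difference over input was at most -2.37, computed at the floor (edgeR adjusted p = 4.15e-08).

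Over IgG the signs of the IP ratio were opposite in WT and siTDP43 cells for 19 members, with both ratios and the interaction called at an adjusted p under 0.05, beside 28.7% of all genes. Of these, 14 were lower than IgG in WT and higher in siTDP43 cells (ORC1, ORC3, MCM4, MCM6, GINS3, GINS4, POLA1, POLA2, PRIM1, POLD3, RFC3, RPA2, RRM1 and RRM2), and 5 went the other way (ORC6, MCM2, PRIM2, TK1 and CHAF1A). ORC3 had the largest difference, 4.44 ± 0.25 (adjusted p = 6.24e-18). Its IgG counts were 271 and 222 in WT and 14, 12 and 8 in siTDP43 cells, and its IP counts 211, 218 and 208 against 466, 358 and 236. The difference was 2.82 ± 0.14 for ORC4 (adjusted p = 3.16e-19) and 2.47 ± 0.09 for MCM4 (adjusted p = 3.75e-23), where the WT IgG level of 1615 ± 0.564 CPM stood above all other groups and siTDP43 IgG held 372 ± 8.35.

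PRIM2 had the largest fall over IgG, -3.43 ± 0.36 (adjusted p = 1.44e-10), with 14 and 40 counts in WT IgG and 96, 138 and 108 in the shallower siTDP43 IgG libraries. TK1, the thymidine kinase of S phase, fell by 1.72 ± 0.13 (adjusted p = 3.08e-14) and MCM2 by 1.12 ± 0.13 (adjusted p = 2.03e-09). For TK1 the IgG level moved from 36.1 ± 2.79 to 286 ± 22.4 CPM and the IP level from 63.2 ± 5.56 to 151 ± 15.8 CPM. Over input, opposite signs with all 3 tests called were found for 7 members, beside 14.7% of all genes. GINS2, PCNA and RPA3 were lower than input in WT and higher in siTDP43 cells, and MCM10, GINS1, POLA1 and POLD1 the reverse.

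**Figure D4:**
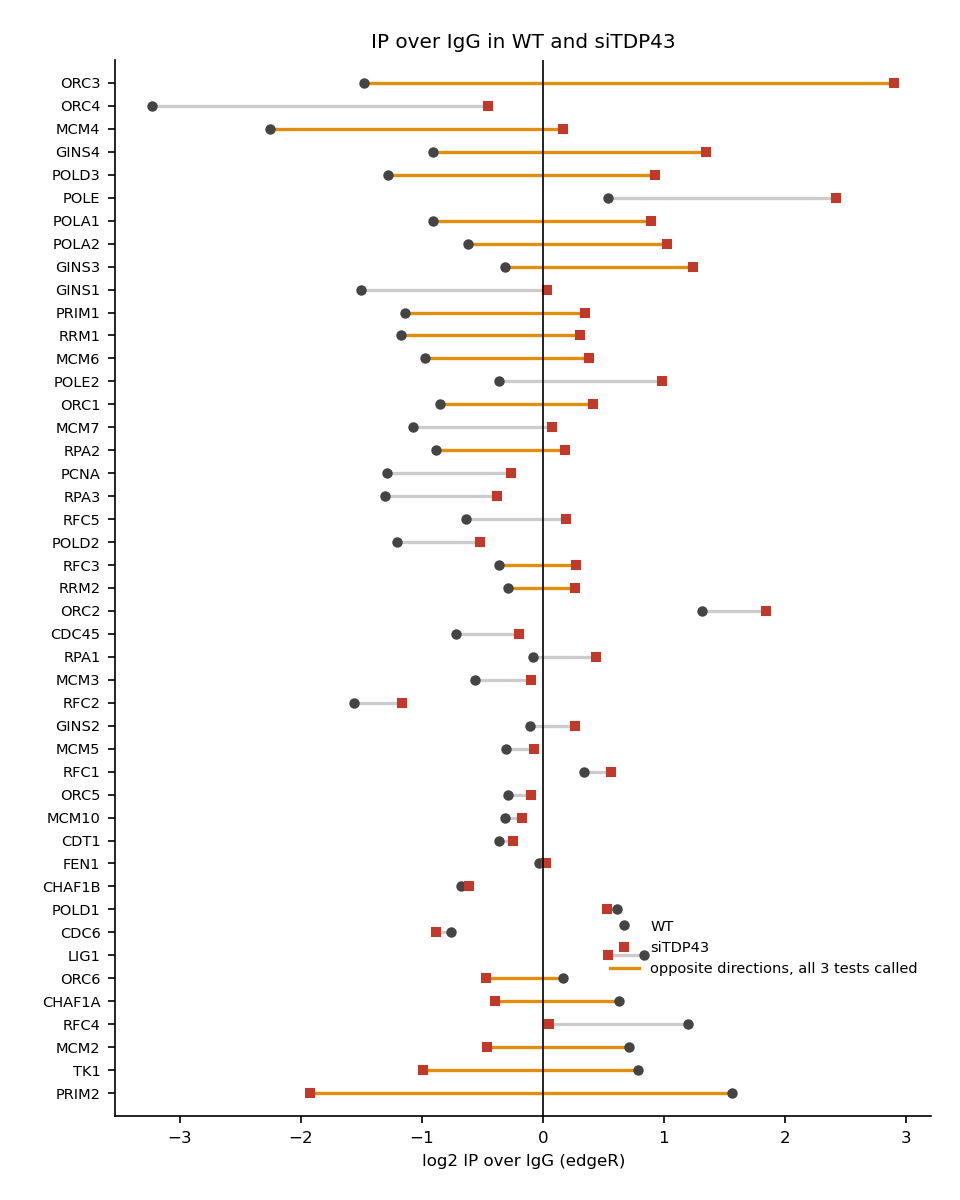
Log2 ratio of IP over IgG in WT (grey circles) and siTDP43 (red squares) for 45 replication genes, sorted by the fitted difference (TYMS, at 0 in siTDP43 IP and IgG, is left out). Orange lines mark the 19 members whose ratios have opposite signs, with ORC3 at one end (4.44) and PRIM2 at the other (-3.43).

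Base composition and motifs were read from the exons of the replication genes. Their median GC content was 48.2%, that of all genes tested in the inputs 49.1%, and that of the WT ac4C(+) genes 56.1%. The letters CCCAGCT, searched for as a C-rich candidate motif, were present on the sense strand of 20 of 46 members (43.5%), of 45.8% of all genes and of 55.5% of the WT ac4C(+) genes. The UG-rich letters TGTGTG were present in 32 members (69.6% against 66.6% of all) and TGTGCG in 10 (21.7% against 31.0%). Longer exons allow more matches, and the median exon length was 2770 bases in the members and 3055 in all genes. Across genes, the log2 ratio of WT IP over input rose with GC content, with Spearman's rho 0.37 over the 46 members and 0.36 over 14751 genes. With exon length rho was 0.50 over the members and 0.20 over all genes. For the interaction over input rho with length was -0.54 over the members and -0.25 over all genes, and with GC content -0.27 and -0.10. These values are a description since genes share the libraries.

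Of the 5 members more than 2-fold above input in WT IP, CDT1 held the letters CCCAGCT at 2 places and CHAF1A at 1, while LIG1, POLE and RFC1 held none. The first place in each is shown with the motif in capitals, read 5′ to 3′ on the plus strand of GRCh37. It lies in coding sequence, at chr16:88872436-88872464 in CDT1 and chr19:4433067-4433090 in CHAF1A.
CDT1: cggagcagcccCCCAGCTcacggcctcgc
CHAF1A: tcctggCCCAGCTgctgccgctcc
In WT cells CDT1 was lower in IP than in IgG by 0.36 and CHAF1A was 1.55-fold higher, as given above.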

How the data were processed

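acRIP-seq was measured in poly(A) RNA of HEK293T cells. According to the methods and the labels, the authors made libraries by Smart-seq2, trimmed reads with Trim Galore 0.6.7, aligned them to hg19 with STAR 2.7.10a and counted uniquely mapped reads per gene with featureCounts 2.0.2. The deposited table holds raw counts with no normalization. Strand and pair settings were not given in the sources used here; 81.3 to 95.9% of counts from 1 to 20 were even, as they would be if both mates of a pair were counted. No molecular identifiers were used, so errors and floors cover counting and library spread only.

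Groups came from the sample titles. Members, lists and tests were chosen with earlier results of these data known. Counts were tested with the quasi-likelihood test of edgeR 4.0.16 (TMM, filterByExpr with minimum count 10, two-sided, Benjamini-Hochberg over all genes tested). The input contrast was fitted on 6 libraries, the enrichments within each genotype and the interactions on all 17. The threshold was an adjusted p of 0.05, and enrichment also had to exceed 2-fold. The SE was derived from the F statistic. CPM and FPKM used TMM factors over all libraries. The floor was 3 counts per library. Counts and full statistics are given for the 3 largest called rises and falls of each comparison (mean count 100 or more, groups of libraries apart), for the largest input change of each role, and for TYMS and PCNA.

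On simulated counts with 200 genes changed by 2-fold or more, edgeR recovered 98% of them in the input contrast (14019 genes), 97% in WT IP over input, 95% in siTDP43 IP over input, and 81.5% and 66.5% in the interactions over input and over IgG. Of the calls, 1.04 to 6.86% were false. Recovery of smaller changes was not tested. Nor was a setting in which most genes change, as in the inputs, where 79.2% were called. Replicates differed by 3.23 to 9.17 in chi-square per degree of freedom, so no library was an exact copy of another. Counting both mates of a pair would itself raise this value. Alternatives were DESeq2 1.42.0, limma 3.58.1 on log2(FPKM + 1), other scalings and filters, halved counts, a GC trend removed, a replicate block, all libraries in the fit and each library left out. Motifs were searched in RefSeq promoter windows (GRCh38.p14) and in the table's exons on GRCh37.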

Additional observations from a re-analysis of the deposited data

Results flagged for a closer look

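The results listed here are differences between WT and siTDP43 cells in the ratio of IP to a control, each from the interaction test of edgeR over 17 libraries (log2, siTDP43 minus WT). Over input they were 2.53 for RPA3, 2.14 for ORC5, 1.96 for POLE2, 1.95 for PCNA, -1.77 for LIG1, -2.72 for CHAF1A and at most -2.37 for TYMS, whose value is a bound set by the floor. The mean IgG level moved in the same direction as IP for each of these genes. From WT to siTDP43 it went from 10.7 to 61.4 CPM in ORC5, beside 8.87 to 60.4 CPM in IP. For RPA3 it went from 369 to 818 CPM, beside 151 to 662 in IP. For CHAF1A it went from 473 to 75.6 CPM, beside 744 to 60.3 in IP. The RPA3 and CHAF1A differences were smaller over IgG, and that of LIG1 was not called there, as given above. Over IgG the listed differences were 4.44 for ORC3, 2.82 for ORC4, 2.47 for MCM4, 1.08 for PCNA, -1.12 for MCM2, -1.72 for TK1 and -3.43 for PRIM2. WT IgG had 2 libraries, and the siTDP43 IgG libraries held 3013989 to 3436811 counts against 9022250 and 9466855 in WT IgG; the part of this in the IgG differences was not tested.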

How the results depend on the processing

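No called change of a member given with full statistics changed sign under any alternative run. The members' median log2 value did in 3 comparisons. It went from 0.12 to -0.44 in siTDP43 IP over IgG and from -0.42 to 0.07 in WT IgG over input with a GC trend removed, and from 0.26 to -0.04 in the interaction over input with total count scaling and with limma. Of the counts of members, 428 alternative values stayed within 1.5 times the value reported and 19 did not. With a GC trend removed, members lower in WT IP than IgG were 24, in WT IgG over input 16 higher and 7 lower, in siTDP43 IP 5 higher than input and 2 higher and 7 lower than IgG, and in siTDP43 IgG over input 8 higher and 9 lower. Total count scaling gave 23 members lower in siTDP43 IP than input, 1 lower than IgG, and 3 higher and 30 lower in IgG over input. limma gave 22 and 1, and 3 higher and 28 lower. All 17 libraries in the fit gave 3 higher in siTDP43 IgG over input. IP against IgG alone gave 3 and 6 ac4C(+) members. The cause of these shifts was not tested. Another 8 values of single members fell short of 2-fold, as given beside them.

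Leaving out each library gave 31 to 32 higher and 10 to 11 lower members in the inputs, 23 to 25 lower in WT IP than input and 28 to 30 higher over IgG in the interaction, and 0 ac4C(+) members throughout. The replicate numbers did not pair the samples (correlations from -0.03 to 0.07); with the replicate block the inputs gave 31 higher and 10 lower, and the interaction over IgG 29 higher.

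Total count scaling moved the median of all genes in siTDP43 IgG over input from -0.58 to -1.13, with 2367 genes higher and 6420 lower in place of 3145 and 5227; a GC trend removed gave 4038 and 4038. In WT IgG over input it gave 4591 and 4358 in place of 3594 and 5400. limma gave 1803 and 2969 in siTDP43 IP over input, and 3654 and 7076 in place of 4770 and 5511 in the interaction over input. Depth limits the siTDP43 IgG libraries most, where 3 counts are 1.13 CPM.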
